A study of Homo sapiens with 18 samples.

Results

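The 10 genes described here build or mark epithelial cell contacts and the keratin filaments of simple epithelia. They are CDH1, EPCAM, CLDN1, CLDN4, CLDN7, OCLN, TJP1, KRT8, KRT18 and KRT19, and they were taken by gene symbol from a counts table of 58815 genes. All 10 symbols were found, and 9 of the genes had enough counts for the test across genes, with CDH1 as the exception. LM2, BrM3 and BoM cells, derived from the human triple-negative breast cancer line MDA-MB-231 by selection for lung, brain and bone metastasis, were grown as monolayers and carried a doxycycline (DOX) inducible short hairpin RNA. Each line was sequenced as 3 shCtrl libraries, with a control hairpin, and 3 shWDR5 libraries, with the single hairpin shWDR5-1 against WDR5, which gave 18 libraries in 6 groups. The counts table abbreviates the hairpins, and the abbreviation that does not stand for WDR5 was taken as shCtrl, the only other hairpin in the labels. Every group, the controls included, received DOX at 1 μg/mL for 3 days, and the 3 replicates of a group were harvested at different passages of the same cells, so p-values measure the spread between passages. WDR5 is a scaffold protein of chromatin-modifying complexes, and the comparison of shWDR5 with shCtrl asks which transcripts change when it is depleted.

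Claudins and occludin are membrane proteins that seal neighbouring epithelial cells at tight junctions, and ZO-1, the product of TJP1, ties them to the actin cytoskeleton below. E-cadherin, encoded by CDH1, holds cells together at adherens junctions, and EPCAM is an epithelial surface protein that also binds claudin-7. Keratin filaments assemble from equal amounts of a type II keratin such as KRT8 and a type I keratin such as KRT18 or KRT19. MDA-MB-231 is known for a mesenchymal-like state with little E-cadherin, and loss of the genes described here is the usual mark of an epithelial-mesenchymal transition.

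The libraries held 17485841 to 119667013 counts on genes, and the deepest was replicate 3 of LM2 shCtrl. CPM below is the usual library-scaled count, a gene's count relative to the total of its library after scaling by edgeR's TMM method, and each CPM is a level relative to the other RNA of the same library. In bulk RNA, fewer cells with a transcript and less of it per cell cannot be told apart. WDR5 itself had log2 fold changes of -2.43, -1.97 and -2.24 in LM2, BrM3 and BoM (adjusted p = 1.8e-08, 4.2e-07 and 6.2e-08 by edgeR's quasi-likelihood test). All 18 libraries were nearest to a library of the same titled line, which cannot show that a title names the right line. Lines were taken from the titles, while the source labels name another line for most libraries. Scaled by exon length to RPKM, the level of VIM, the mesenchymal filament protein vimentin, was 303 to 392 over the group means, that of KRT18 93.5 to 145, that of EPCAM 1.9 to 4.04 and that of CDH1 0.0139 to 0.0801. The labels call these cells breast epithelial cells. Of the epithelial markers checked, CDH1 was close to absent, KRT8 and KRT18 were abundant, and of 28 other keratins and 16 epithelial transcription and splicing factors 6 and 5 passed the filter. Among blood cell markers, PTPRC reached a group mean of 0.924 CPM and CD68 0.0823 CPM, and CD3E, HBB and HBA1 stayed at or below 0.0435 CPM.

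In the control cells, the lines differed in most of these genes before any knockdown. LM2 was the lowest line for EPCAM, CLDN1, CLDN7, OCLN and KRT19. Among the 9 genes tested, 6 were higher and 0 lower in BrM3 than in LM2 at an adjusted p under 0.05, where 24.2% of all 12160 tested genes were higher and 23.4% lower. BoM was higher than LM2 in 6 and lower in 1, against 26% higher and 25.8% lower over all genes, and BoM against BrM3 gave 2 higher and 2 lower, against 17.8% and 19.8%. These 3 comparisons share their shCtrl libraries in pairs. Related contact, keratin and surface lists, described below, did not all place LM2 lowest. In BrM3 against LM2, 0 of 6 other keratins were higher and 4 lower. Higher and lower were 2 and 6 of 10 adherens junction genes, and 3 and 4 of 13 desmosome and hemidesmosome genes. The counts were 4 and 4 of 23 tight junction and polarity genes and 7 and 2 of 10 other epithelial surface genes. In BoM against LM2 they were 1 and 4, 2 and 5, 2 and 8, 8 and 3, and 5 and 2 in that order. Of 9 mesenchymal genes, 1 was higher and 6 lower in BrM3 than in LM2, with FN1 and AXL among the lower. In BoM against LM2, 1 was higher and 5 lower, with FN1 among the lower. VIM was called in neither comparison.

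The claudins set the lines apart in different orders. CLDN1, a barrier-forming claudin, had a level of 1.93 ± 0.254 CPM in LM2 (SD, n = 3), 8.68 ± 0.451 in BrM3 and 12.3 ± 2.31 in BoM. LM2 lay below BrM3 by a log2 difference of 2.17 (SE 0.209, adjusted p = 1.9e-07) and below BoM by 2.66 (SE 0.212, adjusted p = 1.7e-08), while BrM3 and BoM were neighbours not separated by the test (0.49, adjusted p = 0.054). That CLDN1 step passed without BoM shCtrl replicate 2 (0.58, adjusted p = 0.045), LM2 shWDR5 replicate 2 (0.49, adjusted p = 0.04) or LM2 shWDR5 replicate 3 (0.49, adjusted p = 0.0074). CLDN7 ran from 8.29 ± 0.479 CPM in LM2 through 11.8 ± 1.59 in BoM to 21.2 ± 1.87 in BrM3, and each step passed the test (log2 difference BoM minus LM2 0.51, adjusted p = 0.0053, and BoM minus BrM3 -0.84, adjusted p = 0.00013). CLDN4 was highest in BoM, with 9.88 ± 2.52 CPM against 5.97 ± 0.606 in LM2 (adjusted p = 0.0039) and 5.53 ± 1.04 in BrM3 (adjusted p = 0.0023), and its levels in LM2 and BrM3 were not separated (adjusted p = 0.63).

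EPCAM and OCLN had the same order, with LM2 lowest and BrM3 and BoM at like levels. EPCAM stood at 6.21 ± 0.759, 9.72 ± 0.182 and 9.83 ± 0.458 CPM for LM2, BrM3 and BoM, and the log2 difference of BoM minus BrM3 was 0.01 with a 95% interval of -0.241 to 0.271. OCLN stood at 7.28 ± 0.938, 12.3 ± 0.922 and 12.9 ± 1.46 CPM. The level of TJP1 was 112 ± 13.9, 117 ± 6.19 and 119 ± 15.8 CPM, with no pair of lines past the test.

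Among the keratins, the level of KRT19 ran from 35.3 ± 8.9 CPM in LM2 to 54.9 ± 6.11 in BrM3 and 127 ± 37.7 in BoM, and BoM exceeded LM2 by a log2 difference of 1.84 (SE 0.207, adjusted p = 1.2e-06). The smaller difference between BrM3 and LM2 (0.63, adjusted p = 0.017) was lost without BrM3 shCtrl replicate 2 (0.54, adjusted p = 0.068) or LM2 shCtrl replicate 1 (0.46, adjusted p = 0.079). KRT8 went the other way, with 390 ± 67.5 CPM in LM2, 388 ± 54.4 in BrM3 and 290 ± 48.8 in BoM. BoM was lower than LM2 (adjusted p = 0.027) and than BrM3 (adjusted p = 0.04), and each of these calls was lost in 4 of 18 fits that left out 1 library. They were lost without BoM shCtrl replicate 1 or 3, the first also without LM2 shCtrl replicate 2 or 3 and the second without BrM3 shCtrl replicate 2 or 3, with log2 differences of -0.43 to -0.31 and -0.44 to -0.30. KRT18 was higher in BrM3, at 375 ± 14.1 CPM, than in LM2, at 287 ± 27.8 (log2 difference 0.38, adjusted p = 0.018), a call lost without BrM3 shCtrl replicate 2 (0.36, adjusted p = 0.056) or LM2 shCtrl replicate 1 (0.33, adjusted p = 0.068).

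**Figure D1:**
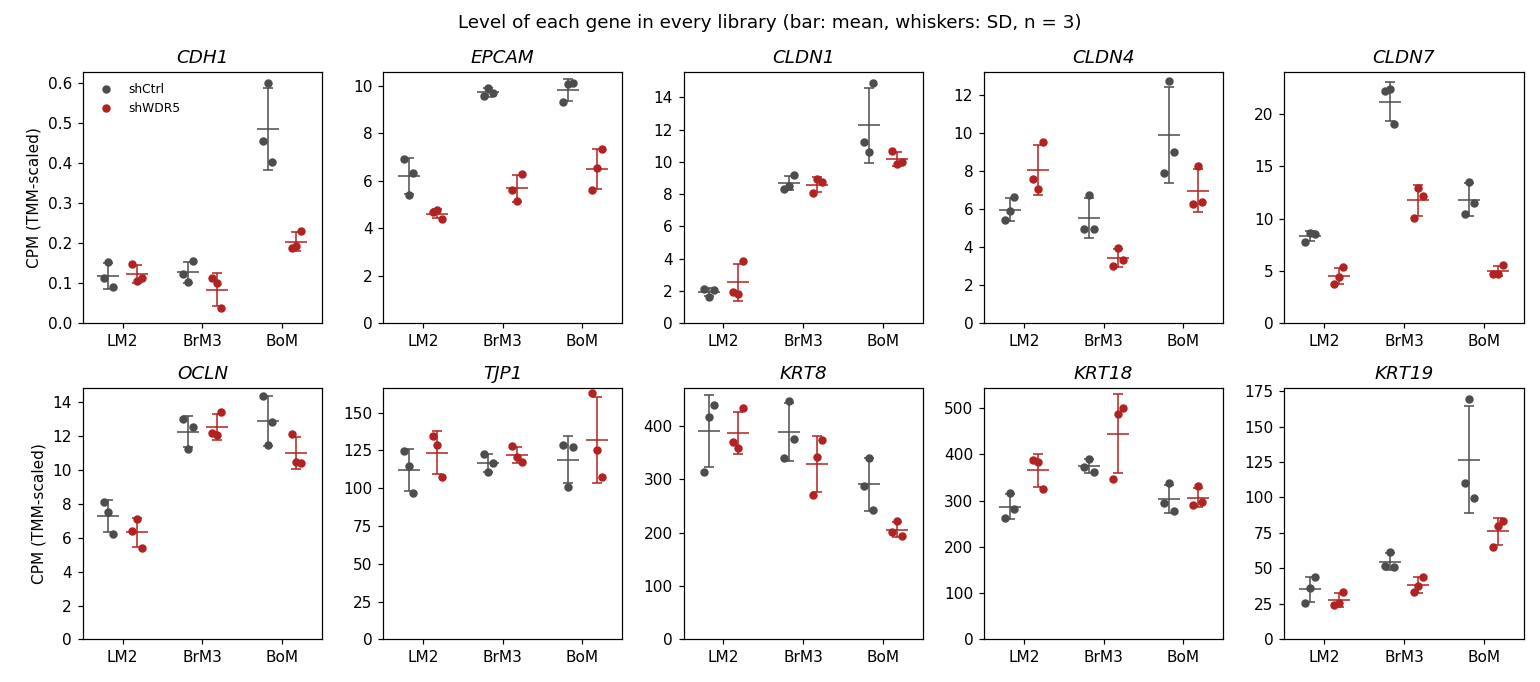
Level of each of the 10 genes in all 18 libraries, in CPM on a linear axis from 0, with shCtrl in grey and shWDR5 in red for LM2, BrM3 and BoM. Each point is 1 library, the long bar is the mean and the whiskers the SD of 3 libraries; for EPCAM and CLDN7 every red point lies below every grey point of the same line.

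After WDR5 knockdown CLDN7 and EPCAM fell most steadily, KRT19 and KRT8 fell in BoM, CLDN4 fell in BrM3, and no gene of the 10 rose in any single line at an adjusted p under 0.05. In LM2, CLDN7 alone of the 9 tested genes was lower, 1 of 9, against 4.8% of all tested genes lower and 1.49% higher. In BrM3, 3 of 9 were lower, against 7.96% lower and 2.92% higher, and in BoM 4 of 9 were lower, against 10.8% lower and 5.41% higher. With the 3 lines averaged, CLDN7, EPCAM, KRT19 and KRT8 were lower, 4 of the 9, and KRT18 was higher, against 19.9% lower and 15.6% higher. Of all called genes, 76.3%, 73.2% and 66.5% were lower in LM2, BrM3 and BoM, and the shares were 87.9%, 85% and 82.5% with upper-quartile scaling and 64.3%, 63.9% and 56.6% with DESeq2. Over the 9 genes the median log2 fold changes of LM2, BrM3 and BoM were -0.01, -0.24 and -0.50, where those of all genes were 0.00, -0.01 and 0.02.

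**Figure D2:**
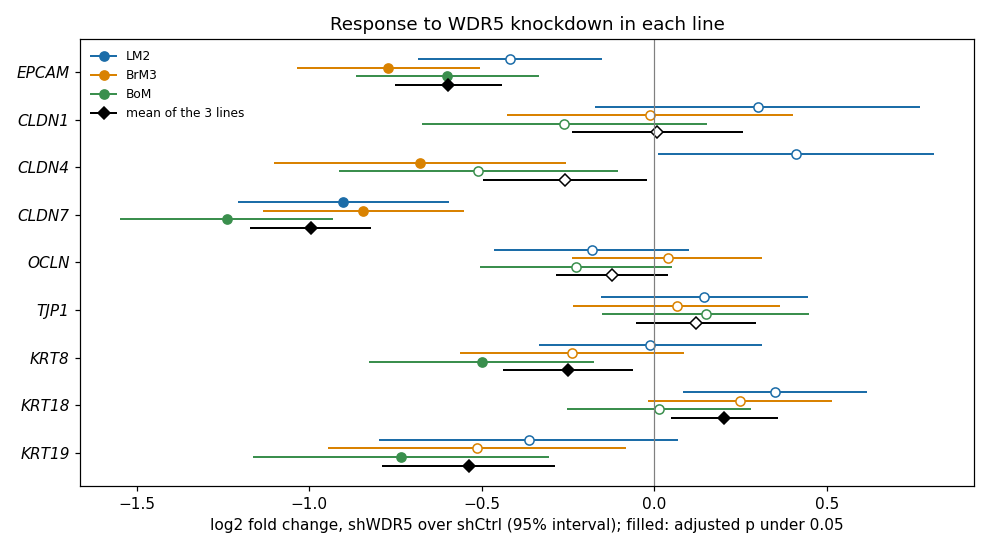
Log2 fold change of shWDR5 over shCtrl for the 9 tested genes, with LM2 in blue, BrM3 in orange, BoM in green and the mean of the 3 lines in black, and horizontal lines for the 95% interval of edgeR's fit. Filled symbols have an adjusted p under 0.05; CLDN7 is filled in every row, and CLDN4 lies at 0.41 in LM2 and at -0.68 in BrM3.

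CLDN7 (ENSG00000181885, chromosome 17 from 7259903 to 7263983, minus strand, GRCh38 and GENCODE release 44) encodes a claudin that is widespread in glandular epithelia. In LM2 its levels were 7.75, 8.65 and 8.48 CPM in the shCtrl libraries and 3.77, 4.41 and 5.35 CPM in the shWDR5 libraries. In BrM3 they were 22.2, 22.4 and 19.0 CPM with shCtrl and 10.1, 13.0 and 12.2 CPM with shWDR5. In BoM they were 10.4, 13.5 and 11.5 CPM with shCtrl and 4.75, 4.69 and 5.58 CPM with shWDR5. The groups did not overlap in any line. Such separation with lower shWDR5 libraries was seen for 14.6%, 19.7% and 17.3% of tested genes in the 3 lines in that order. CLDN7 fell to 0.535 of its control level in LM2 (log2 fold change -0.90, SE 0.144, adjusted p = 0.001 by edgeR), to 0.557 in BrM3 (-0.84, SE 0.137, adjusted p = 0.00093) and to 0.423 in BoM (-1.24, SE 0.145, adjusted p = 2.4e-05). All 3 calls held in each of the 18 fits that left out 1 library. Called lower in all 3 lines were 3.26% of the tested genes, and CLDN7 was the only one of the 9.

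ELP5, a subunit gene of the Elongator complex, overlaps CLDN7 on the opposite strand with 44155 counts in all, and the strand setting of the counting is not given in the sources used here. Its log2 fold changes in the same order of lines were 0.17, 0.16 and 0.18 (adjusted p = 0.4, 0.38 and 0.25), opposite in sign to that of CLDN7. The ELP5 mean of the lines, 0.17, was called higher (adjusted p = 0.036 by edgeR), as were 15.6% of tested genes.

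RefSeq sequences on GRCh38.p14 were at hand for 6 of the 10 genes, without CDH1, EPCAM, KRT18 and KRT19. The 250 bases before the start are printed 5′ to 3′ on the gene's strand. They are given for CLDN7, the gene called lower in every line, at both of its RefSeq starts. They are also given for CLDN4, called lower in BrM3, and KRT8, called lower in BoM. Capitals mark CAGGTG or its reverse complement CACCTG, the E-box letters that repressors such as SNAI2 and ZEB1 are known to bind.

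CLDN7, start 7263213, chr17:7263214-7263463, minus strand: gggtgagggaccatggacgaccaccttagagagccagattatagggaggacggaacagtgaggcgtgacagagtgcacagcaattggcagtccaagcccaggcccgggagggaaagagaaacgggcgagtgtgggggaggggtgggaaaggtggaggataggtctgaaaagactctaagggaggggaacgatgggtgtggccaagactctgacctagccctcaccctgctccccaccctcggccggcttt

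CLDN7, start 7262478, chr17:7262479-7262728, minus strand: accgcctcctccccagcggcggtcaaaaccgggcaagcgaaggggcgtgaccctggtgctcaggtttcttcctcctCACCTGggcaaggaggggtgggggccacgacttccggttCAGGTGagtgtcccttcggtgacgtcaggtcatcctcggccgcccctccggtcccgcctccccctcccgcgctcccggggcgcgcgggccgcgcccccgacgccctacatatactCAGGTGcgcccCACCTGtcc

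CLDN4, start 73830996, chr7:73830746-73830995, plus strand: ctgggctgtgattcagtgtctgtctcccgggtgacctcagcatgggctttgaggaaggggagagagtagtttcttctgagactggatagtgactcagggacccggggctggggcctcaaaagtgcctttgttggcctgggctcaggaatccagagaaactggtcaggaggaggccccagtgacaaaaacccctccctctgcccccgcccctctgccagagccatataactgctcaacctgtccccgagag

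KRT8, start 52926469, chr12:52926470-52926719, minus strand: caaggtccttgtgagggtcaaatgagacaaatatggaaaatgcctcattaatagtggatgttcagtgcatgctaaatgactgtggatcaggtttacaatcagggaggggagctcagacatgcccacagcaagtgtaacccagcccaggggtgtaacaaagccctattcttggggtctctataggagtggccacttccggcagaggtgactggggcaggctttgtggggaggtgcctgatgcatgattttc

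The downstream CLDN7 window held 4 matches, whose first bases lay 174, 135, 20 and 9 bases before the start, and the upstream window held 0. Over 35116 RefSeq windows of 250 bases, 17.5% held at least 1 match on either strand and 43 windows, or 0.122%, held at least 4. The cut-off of 4 is the number found in this CLDN7 window itself, so the share of 0.122% describes the window and is no test. CLDN4, KRT8 and CLDN1 held 0 matches, OCLN 1 in each of its windows and TJP1 1 in the first of its 4. The palindrome CACGTG, the E-box of MYC and its partners, was in 6.34% of all windows and in none of these genes' windows. A match is a run of letters in the reference, and binding was not measured. The printed KRT8 start lies well inside its gene model, which runs from 52897187 to 52949954. Those of CLDN4 and CLDN7 also lie inside their models. Which start these cells use was not tested, so a window need not be the promoter in use.

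EPCAM (ENSG00000119888, chromosome 2 from 47345158 to 47387601, plus strand) encodes the surface protein used to capture epithelial cells. In LM2 its levels were 6.92, 5.41 and 6.31 CPM with shCtrl and 4.69, 4.75 and 4.39 CPM with shWDR5. In BrM3 they were 9.56, 9.92 and 9.67 CPM with shCtrl and 5.59, 5.15 and 6.27 CPM with shWDR5. In BoM they were 9.30, 10.1 and 10.1 CPM with shCtrl and 5.61, 6.55 and 7.31 CPM with shWDR5. As for CLDN7, every shWDR5 library lay below every shCtrl library of its line, which held for 7.14% of the tested genes in all 3 lines. EPCAM fell to 0.586 of control in BrM3 (log2 fold change -0.77, SE 0.124, adjusted p = 9e-04 by edgeR) and to 0.659 in BoM (-0.60, SE 0.125, adjusted p = 0.0034), and both calls held without any 1 library. In LM2 the log2 fold change of -0.42 missed the threshold (adjusted p = 0.057), and it passed without LM2 shCtrl replicate 2 (-0.51, adjusted p = 0.046), BoM shWDR5 replicate 1 (-0.42, adjusted p = 0.036) or BoM shWDR5 replicate 3 (-0.42, adjusted p = 0.041). The mean of the lines was -0.60 (SE 0.072, adjusted p = 8e-06). Within libraries the ratio of CLDN7 to EPCAM counts was chosen after the values were seen. In LM2 this ratio was 1.12 to 1.6 with shCtrl and 0.804 to 1.22 with shWDR5. It was 1.97 to 2.32 and 1.81 to 2.52 in BrM3, and 1.12 to 1.35 and 0.716 to 0.847 in BoM. The groups did not overlap in BoM alone, and how many other gene pairs separate in this way was not counted.

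CLDN4 (ENSG00000189143, chromosome 7 from 73799542 to 73832690, plus strand), a claudin that lowers sodium leak between cells, had log2 fold changes of opposite sign in LM2 and BrM3. In LM2 its levels were 5.40, 5.90 and 6.61 CPM with shCtrl and 7.57, 7.05 and 9.51 CPM with shWDR5, all above control. In BrM3 they were 4.92, 6.73 and 4.94 CPM with shCtrl and 3.03, 3.96 and 3.32 CPM with shWDR5, all below control. In BoM they were 7.90, 12.7 and 9.01 CPM with shCtrl and 6.25, 8.26 and 6.39 CPM with shWDR5, with overlap. Of all tested genes, 10.7% were separated upward in LM2 and 19.7% downward in BrM3. The fall in BrM3 passed the test (0.625 of control, log2 fold change -0.68, SE 0.199, adjusted p = 0.036 by edgeR). The positive value in LM2 (0.41, adjusted p = 0.23) and the negative value in BoM (-0.51, adjusted p = 0.079) did not.

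The CLDN4 call in BrM3 did not survive the loss of a BrM3 library. The log2 fold change became -0.76, -0.52 and -0.75 without shCtrl replicates 1, 2 and 3 (adjusted p = 0.052, 0.17 and 0.056), and -0.61, -0.79 and -0.65 without shWDR5 replicates 1, 2 and 3 (adjusted p = 0.088, 0.051 and 0.12). The value of -0.51 in BoM became -0.65 without BoM shCtrl replicate 1 (adjusted p = 0.044) and -0.28 without BoM shCtrl replicate 2 (adjusted p = 0.41).

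The other tight junction genes passed the test in no line. CLDN1 (ENSG00000163347, chromosome 3 from 190305707 to 190322446) had log2 fold changes of 0.30, -0.01 and -0.26 in LM2, BrM3 and BoM, with a mean over the lines of 0.01 and a 95% interval of -0.237 to 0.254. OCLN (ENSG00000197822, chromosome 5 from 69492292 to 69558104) had -0.18, 0.04 and -0.23, with a mean of -0.12 and an interval of -0.283 to 0.035. TJP1 (ENSG00000104067, chromosome 15 from 29699367 to 29968915) had 0.14, 0.06 and 0.15, with a mean of 0.12 and an interval of -0.052 to 0.29. Their libraries overlapped between shCtrl and shWDR5 in all 3 lines, and 1 CLDN1 library stood apart, LM2 shWDR5 replicate 3 at 3.83 CPM against 1.96 and 1.79 CPM in the other LM2 shWDR5 libraries. Without it the CLDN1 value in LM2 was -0.04 (adjusted p = 0.91), and without BoM shWDR5 replicate 1 the TJP1 value in BoM was -0.035 (adjusted p = 0.89).

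CDH1 (ENSG00000039068, chromosome 16 from 68737292 to 68835537) was counted 2 to 23 times per library. The BoM shCtrl libraries held 18, 23 and 8 counts and the BoM shWDR5 libraries 7, 5 and 6. LM2 held 3, 9 and 11 counts with shCtrl and 6, 7 and 2 with shWDR5, and BrM3 held 6, 4 and 6 and then 2, 3 and 2. Outside the BoM shCtrl libraries CDH1 was thus near the floor of detection, the BoM shWDR5 libraries included. In CPM the BoM groups did not overlap, at 0.403 to 0.601 with shCtrl and 0.188 to 0.231 with shWDR5. Of the tested genes, which do not include CDH1, 17.3% were separated in this direction in BoM. With edgeR's laxer filter, which kept 18428 genes, CDH1 fell to 0.418 of control in BoM (log2 fold change -1.26, SE 0.349, adjusted p = 0.023). Control BoM exceeded control LM2 by a log2 difference of 2.09 (adjusted p = 4.7e-05). CDH1 passed this filter through the BoM shCtrl libraries, where it was highest. Both comparisons use that group, so their p-values are no independent support. The fall missed the threshold without BoM shCtrl replicate 2 (-1.07, adjusted p = 0.12), BoM shWDR5 replicate 1 (-1.18, adjusted p = 0.067) or BoM shWDR5 replicate 2 (-1.24, adjusted p = 0.06), and with no filter (-1.27, adjusted p = 0.12).

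KRT19 (ENSG00000171345, chromosome 17 from 41523617 to 41528308, minus strand), the smallest type I keratin, had the steepest decrease among the keratins of the 10. In BoM its levels were 110, 170 and 99.8 CPM with shCtrl and 65.2, 80.0 and 83.3 CPM with shWDR5. In BrM3 they were 51.9, 61.9 and 50.8 CPM with shCtrl and 33.2, 37.9 and 43.9 CPM with shWDR5. In LM2 they were 26.0, 36.1 and 43.7 CPM with shCtrl and 24.2, 25.5 and 33.3 CPM with shWDR5. The groups were separate in BoM and BrM3 and overlapped in LM2. Separation with lower shWDR5 libraries was seen for 17.3% of tested genes in BoM and 19.7% in BrM3. KRT19 fell to 0.601 of control in BoM (log2 fold change -0.73, SE 0.202, adjusted p = 0.02 by edgeR), and the values in BrM3 (-0.51, adjusted p = 0.12) and LM2 (-0.37, adjusted p = 0.35) missed the threshold. The BoM call was lost without BoM shCtrl replicate 2 (-0.46, adjusted p = 0.14) or BoM shWDR5 replicate 1 (-0.63, adjusted p = 0.069), whereas the mean of the lines (-0.54, SE 0.117, adjusted p = 0.0019) held in all 18 such fits.

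KRT8 (ENSG00000170421, chromosome 12 from 52897187 to 52949954, minus strand), the type II partner, had levels of 288, 340 and 242 CPM in BoM with shCtrl and 201, 221 and 194 CPM with shWDR5. The BoM groups did not overlap, as for 17.3% of tested genes with lower shWDR5 libraries. KRT8 fell to 0.707 of control in BoM (log2 fold change -0.50, SE 0.153, adjusted p = 0.034 by edgeR). It had 313 to 439 CPM with shCtrl and 359 to 432 CPM with shWDR5 in LM2 (-0.01, adjusted p = 0.98), and 340 to 447 CPM and 271 to 373 CPM in BrM3 (-0.24, adjusted p = 0.36), with overlap in both lines. The BoM call was lost without shCtrl replicate 1 (-0.51, adjusted p = 0.075) or 2 (-0.37, adjusted p = 0.17) and without shWDR5 replicate 1 (-0.49, adjusted p = 0.073), 2 (-0.56, adjusted p = 0.051) or 3 (-0.46, adjusted p = 0.098) of BoM. The mean of the lines was -0.25 (adjusted p = 0.035), a call that held in 8 of 18 fits that left out 1 library. It was lost without replicate 1 or 2 of BoM shCtrl, 1 or 3 of BoM shWDR5, 2 of BrM3 shCtrl, 1 of BrM3 shWDR5, 2 or 3 of LM2 shCtrl, or 1 or 2 of LM2 shWDR5, with KRT8 values of -0.25 to -0.21.

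KRT18 (ENSG00000111057, chromosome 12 from 52948871 to 52952906, plus strand), the type I partner of KRT8, was called lower in no line. Its levels in LM2 were 263, 317 and 281 CPM with shCtrl and 388, 383 and 325 CPM with shWDR5. In BrM3 they were 373, 389 and 361 CPM with shCtrl and 347, 486 and 501 CPM with shWDR5, and in BoM 295, 338 and 278 CPM against 291, 331 and 297 CPM. The shWDR5 libraries lay above all controls in LM2, as for 10.7% of the tested genes, while the groups overlapped in BrM3 and BoM. For KRT18 the log2 fold changes were 0.35, 0.25 and 0.01 for LM2, BrM3 and BoM (adjusted p = 0.11, 0.23 and 0.96 by edgeR). The mean of the lines, 0.20 (SE 0.072), was called higher (adjusted p = 0.036), but the call held in 7 of 18 fits that left out 1 library and was lost with upper-quartile scaling (0.15, adjusted p = 0.14). It was lost without replicate 1 or 3 of LM2 shCtrl, BrM3 shCtrl or BoM shCtrl, 1 or 2 of LM2 shWDR5, 2 or 3 of BrM3 shWDR5, or 2 of BoM shWDR5, with KRT18 values of 0.17 to 0.20. Without BrM3 shWDR5 replicate 1, KRT18 was called higher in LM2 (0.35, adjusted p = 0.035) and in BrM3 (0.40, adjusted p = 0.024).

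KRT8 and KRT18 were also compared within each library, since a ratio of their counts does not depend on how libraries are scaled. These ratios were chosen after the values were seen and are given without a test. KRT8 over KRT18 was 1.19, 1.31 and 1.56 with shCtrl and 0.953, 0.936 and 1.33 with shWDR5 in LM2. It was 0.912, 1.15 and 1.04 with shCtrl and 0.78, 0.703 and 0.744 with shWDR5 in BrM3, and 0.977, 1.01 and 0.871 against 0.689, 0.668 and 0.652 in BoM. The groups were separate in BrM3 and BoM, and in LM2 the third shWDR5 library lay among the controls. How many other gene pairs separate in this way was not counted. Single genes separated with lower shWDR5 libraries for 19.7% of tested genes in BrM3 and 17.3% in BoM. On average over the lines the ratio with shWDR5 was 0.736 of that with shCtrl. KRT19 over KRT18 was 0.099 to 0.156 and 0.0625 to 0.102 in LM2, 0.139 to 0.159 and 0.0778 to 0.0955 in BrM3, and 0.359 to 0.502 and 0.224 to 0.28 in BoM, with shCtrl before shWDR5, and on average 0.609 of control.

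**Figure D3:**
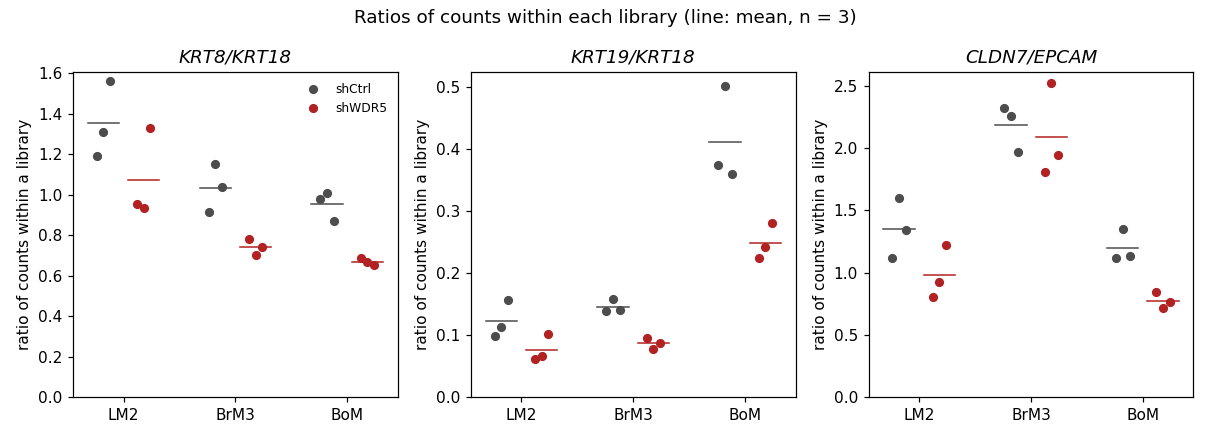
Ratio of the counts of 2 genes within each library, KRT8 over KRT18, KRT19 over KRT18 and CLDN7 over EPCAM, on linear axes from 0, with shCtrl in grey, shWDR5 in red and the mean of 3 libraries as a line. KRT8 over KRT18 is 0.912 to 1.15 with shCtrl and 0.703 to 0.78 with shWDR5 in BrM3, without overlap. The ratios were chosen after the values were seen.

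KRT8 and KRT18 lie on opposite strands, and their gene models overlap from 52948871 to 52949954. Both also have many processed copies in the genome. The table held 50 KRT8 pseudogene rows, whose counts summed to 4.87% of those of KRT8, and 67 KRT18 rows, with 1.06% of those of KRT18. KRT8P3 and KRT8P12 passed the filter, with log2 fold changes in BoM of -0.35 (adjusted p = 0.094) and -0.06 (adjusted p = 0.84). Reads shared with copies could not be assigned with certainty. KRT19 and CLDN7 lay at percentiles 92.6 and 87.2 of GC content among tested genes. With each library's dependence on GC content removed, CLDN7 had log2 fold changes of -0.86, -0.77 and -1.08 in LM2, BrM3 and BoM (adjusted p = 0.00013, 0.00011 and 6.3e-06), and KRT19 was called in LM2 (-0.31, adjusted p = 0.025) and BrM3 (-0.40, adjusted p = 0.0038) too. KRT18 was then called higher in LM2 (0.36, adjusted p = 0.013) and BrM3 (0.27, adjusted p = 0.042), CLDN4 higher in LM2 (0.43, adjusted p = 0.043), EPCAM lower in LM2 (-0.44, adjusted p = 0.024) and OCLN lower in BoM (-0.35, adjusted p = 0.025). Calls over all 12160 genes also became more numerous. They numbered 1850 in LM2, 2644 in BrM3 and 3093 in BoM with this correction, against 765, 1323 and 1967 without it.

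The response of none of the 9 genes differed between LM2, BrM3 and BoM after adjustment (edgeR's test of both differences together, 0 of 12160 genes called, or 0%, with 495 at an unadjusted p under 0.05, and 57 called by DESeq2). CLDN4 came nearest, with an adjusted p of 0.33 by edgeR and 0.056 by DESeq2. Its response in BrM3 minus that in LM2 was -1.09 on the log2 scale, with a 95% interval of -1.666 to -0.51 (adjusted p = 0.43). In BoM minus LM2 it was -0.92, with an interval of -1.484 to -0.354 (adjusted p = 0.37), and BoM and BrM3 differed by 0.17, with an interval of -0.41 to 0.748. None of the 9 genes was called in any of these 3 differences, against 0.00822% of tested genes for BrM3 minus LM2, 0% for BoM minus LM2 and 0.00822% for BoM minus BrM3. The 3 differences share libraries in pairs. For CLDN7 the interval of BoM minus LM2 ran from -0.767 to 0.09, for EPCAM that of BrM3 minus LM2 from -0.724 to 0.019, and for KRT8 that of BoM minus LM2 from -0.944 to -0.034 (adjusted p = 0.91).

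Genes of neighbouring structures were drawn from lists of the same cell contacts. Their counts stand beside the shares of all tested genes called lower, 10.8% in BoM, 7.96% in BrM3 and 4.8% in LM2, and called higher, 5.41%, 2.92% and 1.49%, with 19.9% lower and 15.6% higher for the mean of the lines. Of 23 tested tight junction and polarity genes, 8 fell and 2 rose in BoM, while 5 fell in BrM3 and 3 in LM2. With the lines averaged 9 fell and 4 rose, with a median log2 fold change of -0.13 against 0.00 over all genes. F11R, the junctional adhesion molecule JAM-A, had -0.51, -0.95 and -1.42 for LM2, BrM3 and BoM and a mean of -0.96 (adjusted p = 4.5e-07 by edgeR). PATJ, a scaffold of the Crumbs polarity complex, had -0.62, -0.73 and -1.34 (adjusted p = 0.0024, 6e-04 and 1.5e-06), and CGN, the junction plaque protein cingulin, -0.92, -0.51 and -0.82 (adjusted p = 0.0031, 0.054 and 0.0025). F11R and PATJ passed the test in all 3 lines, as CLDN7 did, and CGN passed it in LM2 and BoM.

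Of 10 adherens junction genes, 0 were called in LM2, 2 fell in BrM3 and 1 fell in BoM, and with the lines averaged 2 fell and 2 rose. JUP, plakoglobin, which serves adherens junctions and desmosomes, had a mean log2 fold change of -1.01 (SE 0.169, adjusted p = 2e-04), and PLEKHA7, a binding partner of a catenin, -0.24 (adjusted p = 0.0075). The adhesion molecule NECTIN3 (0.25, adjusted p = 0.02) and alpha-catenin, CTNNA1 (adjusted p = 0.012), rose, and the list's median over the lines was 0.05. Of 13 desmosome and hemidesmosome genes, 0 were called in LM2, 3 fell in BrM3, and 3 fell and 1 rose in BoM, while for the mean 3 fell and 2 rose. Periplakin (PPL), a linker of desmosomes to filaments, had a mean of -1.06 (adjusted p = 4.4e-05), and the desmosomal cadherin DSC2 had -0.85 (adjusted p = 1.7e-06).

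Of 6 other keratins tested, KRT15, a type I keratin of basal epithelia, rose in each line (log2 fold changes 0.85, 0.60 and 0.67 in LM2, BrM3 and BoM, adjusted p = 0.0058, 0.033 and 0.013). The type II keratin KRT7, the usual partner of KRT19, fell in BrM3 (-0.75, adjusted p = 0.0064) and BoM (-0.62, adjusted p = 0.015) and had 0.06 in LM2 (adjusted p = 0.89). In this list 3 genes fell in BrM3 and 3 in BoM, and 4 fell for the mean. Of 10 other epithelial surface genes, 3 fell in BoM, 2 in BrM3 and 2 in LM2, and for the mean 3 fell and 1 rose. SPINT1, an inhibitor of matriptase, had -1.10, -1.65 and -2.21 in LM2, BrM3 and BoM (adjusted p = 0.0073, 0.00072 and 0.00024).

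Of 5 epithelial transcription and splicing factors, 1 rose in BrM3 and 0 were called in LM2 and BoM. Averaged over the lines 3 of these were called: the splicing factor ESRP2 fell (-0.52, adjusted p = 0.0096), and KLF4 and KLF5 rose (0.33, adjusted p = 5e-04, and 0.17, adjusted p = 0.036). Of 5 repressors of epithelial genes, SNAI2 rose (0.28, adjusted p = 0.0038) and KLF8 fell (-0.73, adjusted p = 0.0011) as means over the lines, with neither called in LM2 or BoM. Of 9 mesenchymal genes 0 were called in LM2 and BoM, S100A4 fell in BrM3 (-0.52, adjusted p = 0.009), and VIM had a mean of 0.20 (adjusted p = 0.012). Of the endothelial markers, PECAM1 and KDR were tested, and PECAM1 was higher in LM2 (0.70, adjusted p = 0.033).

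Some calls of the list genes were lost when 1 library was left out. F11R in LM2 was called in 7 of 18 such fits, and in none that left out an LM2 library, with values of -0.59 to -0.46. KRT15 was called in 17 in BoM, lost without BoM shCtrl replicate 1, in 14 in BrM3, lost without BrM3 shCtrl replicate 1 or 3 or BrM3 shWDR5 replicate 2 or 3, and in 18 in LM2. KRT7 in BoM was called in 15, lost without BoM shCtrl replicate 1 or 2 or BoM shWDR5 replicate 3 (values -0.79 to -0.46). SPINT1 in LM2 was called in 16, lost without LM2 shWDR5 replicate 1 or 2, and S100A4 in BrM3 in 17, lost without BrM3 shCtrl replicate 1. PECAM1 in LM2 was called in 13, lost without any LM2 shCtrl library or LM2 shWDR5 replicate 2 or 3. PPL and DSC2 in BrM3 and BoM, PATJ in each line, CGN in LM2 and BoM, KRT7 in BrM3 and SPINT1 in BrM3 and BoM were called in 18. So were the means over the lines of F11R, JUP, PLEKHA7, NECTIN3, PPL, DSC2, ESRP2, KLF4, SNAI2, KLF8 and VIM, while that of KLF5 was called in 10.

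**Figure D4:**
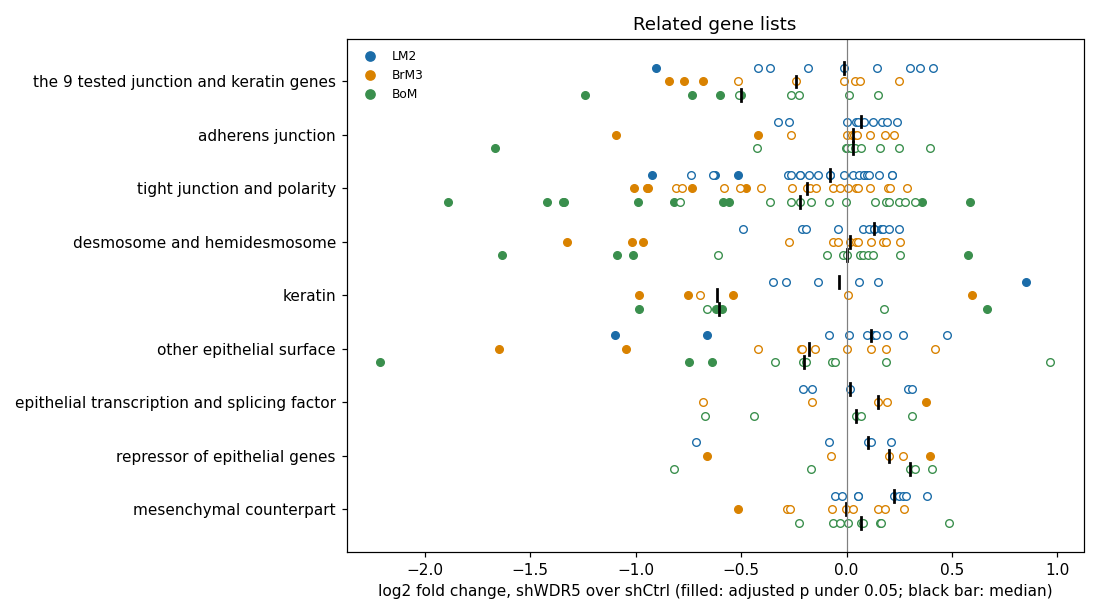
Log2 fold change of shWDR5 over shCtrl for the 9 tested genes and for the tested genes of 8 related lists, with LM2 in blue, BrM3 in orange and BoM in green, 1 point a gene and a black bar at the median. Filled points have an adjusted p under 0.05; the filled points of the tight junction list lie between -1.89 and 0.59, with 3 in LM2 and 10 in BoM.

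Genes with the most similar pattern were sought by the root mean square difference of mean log2 CPM over the 6 groups, each gene centred on its own mean. The nearest to CLDN7 were RAB15 (0.093) and TBKBP1 (0.121), to EPCAM OCEL1 (0.087), to CLDN4 PIR (0.127) and SERINC2 (0.142), to KRT8 MGRN1 (0.055) and MXD4 (0.059), and to KRT19 PLB1 (0.107) and ANXA8 (0.141). Among the 9 tested genes themselves, KRT18 and TJP1 were the closest pair (0.211) and CLDN1 and KRT8 the farthest (1.271). The measure is also small where both genes of a pair vary little, and TJP1 had group means of 112 to 132 CPM.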

How the data were processed

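Paired-end reads of poly(A)-selected, stranded libraries were aligned by the authors to hg38 with STAR 2.7.0, after base calling with CASAVA 1.8.2, per the submitters' processing notes. The authors deposited raw read counts per gene, without normalization. The deposited table also holds log2 fold changes and p-values from the authors' DESeq2 comparisons, which were not used here. Groups were taken from the sample titles. Columns of the table were matched to titles by line, hairpin and number, and the control hairpin, abbreviated "ad" there, was matched by elimination. The source labels name another line for most libraries, and a label names BrM2 where BrM3 is used. The methods describe spike-in RNA, but the table holds 0 spike-in rows, so edgeR's TMM scaling was used. There were 0 unused per-sample columns.

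HTSFilter's criterion, recomputed here over 100 thresholds between 1 and 200, kept genes whose highest normalized count exceeded 140 (mean Jaccard index 0.97), 12160 genes. All 18 libraries entered 1 fit with edgeR 4.0.16 in R 4.3.3 (quasi-likelihood test, 6 groups, 12 residual degrees of freedom), with Benjamini-Hochberg adjustment over all tested genes and calls at 0.05. Intervals are 95% intervals from the fit. The fit was tested on simulated data. Exon lengths, GC content and coordinates come from GENCODE release 44. Replicates of a group differed by more than counting noise (chi-square per gene 5.12 to 90), so each library was 1 replicate.

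The genes and lists were chosen with earlier results of these data known. Named list genes were up to 3 called genes per list and comparison with the largest absolute change, and CGN, PATJ and PECAM1 values in further lines were added for comparison across lines. Alternatives were DESeq2 1.42.0, other scalings, edgeR's filterByExpr or no filter, the replicate block, removal of GC dependence (loess span 0.5, prior count 2, GC content known for 99.8% of genes), each line alone, thinning to 17485841 counts and leaving out each library. Not every gene of the marker lists is reported here.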

Additional observations from a re-analysis of the deposited data

Results flagged for a closer look

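CLDN4 is listed because its response went opposite ways in 2 lines. Every shWDR5 library lay above every shCtrl library in LM2, and every shWDR5 library lay below every shCtrl library in BrM3. The first held for 10.7% of all tested genes and the second for 19.7%. The difference of the log2 fold changes, BrM3 minus LM2, was -1.088 (SE 0.274), from 0.41 in LM2 and -0.68 in BrM3, and it did not pass adjustment over all genes (adjusted p = 0.43 by edgeR's quasi-likelihood test). In the 18 fits that left out 1 library the difference ranged from -1.201 to -0.925 and was called in 0. At 53 to 812 CLDN4 counts per library in these 2 lines, the lowest count was that of BrM3 shWDR5 replicate 1. With every library thinned to 17485841 counts the CLDN4 difference was -1.04 (adjusted p = 0.94).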

How the results depend on the processing

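CLDN7 in BrM3 and BoM and EPCAM in BoM kept their calls under every alternative run. No called value changed sign, whereas 85 recomputed values of single genes, called in neither fit, did. In LM2 the number of the 9 genes called was 1 in the main result, 2 with DESeq2 or upper-quartile scaling, 4 with the replicate block, 5 with GC correction alone or with the block, and 0 after thinning, and 1 to 2 without 1 library. KRT18 and CLDN4 were among the 4 and the 5, called higher. Of all 12160 tested genes, 765 were called in LM2 in the main result, 1147 with DESeq2 and 942 with upper-quartile scaling. That number was 1443 with the replicate block, 1850 with GC correction, 3175 with both, and 332 after thinning. In BrM3 the number of the 9 called was 3, 5 with GC correction, 6 with the replicate block and GC correction, and 1 after thinning, and 2 to 3 without 1 library. Over all genes 1323 were called in BrM3 in the main result, 2644 with GC correction, 3892 with both, and 688 after thinning. In BoM the number of the 9 called was 4, from 3 with each line alone to 6 with the replicate block and GC correction, and 2 to 4 without 1 library. Over all genes 1967 were called in BoM in the main result, 913 with each line alone and 4405 with the block and GC correction. For the mean of the lines the number of the 9 called was 5, from 4 with filterByExpr to 7 with the replicate block and GC correction, and 3 to 6 without 1 library. Over all genes 4318 were called for the mean in the main result, 5874 of 18428 with filterByExpr, and 6835 with the block and GC correction. Differences between lines numbered 0, and 1, CLDN4, with the replicate block and GC correction (adjusted p = 0.014). In that test of both differences together, 0 and 80 of all tested genes were called. With the replicate block alone, CLDN4 BrM3 minus LM2 was -1.10 (adjusted p = 0.048), and with the block and GC correction it was -1.07 (adjusted p = 0.011) and BoM minus LM2 was -0.80 (adjusted p = 0.024). Over all genes 8, 39 and 91 were called in that order. Libraries of a line with the same number correlated in their deviations by 0.36 on average (-0.17 to 0.728), against -0.194 for different numbers, and 12 of 18 correlated best with their own number. The labels do not say that numbers pair libraries, so the replicate block is given here only. Thinning ended the calls of CLDN7 in LM2 (-0.68, adjusted p = 0.10), EPCAM in BrM3 (-0.61, adjusted p = 0.06) and CLDN4 in BrM3 (-0.46, adjusted p = 0.22). The filterByExpr setting ended CLDN4 in BrM3 (-0.63, adjusted p = 0.053) and the KRT8 mean (-0.22, adjusted p = 0.065), and fitting each line alone ended KRT8 in BoM (-0.50, adjusted p = 0.058). The causes were not tested. CDH1 counts were low in every library, at 2 to 23, and the deepest library, LM2 shCtrl replicate 3, held 11.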
